A study of Mus musculus and Rattus norvegicus with 14 samples.

Results

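Chemokines are small secreted proteins that steer the movement of leukocytes, and their receptors are membrane proteins that bind them. The genes described here are all protein-coding genes whose symbol begins with Ccl, Ccr, Cxcl, Cxcr, Cx3cl, Cx3cr, Xcl or Xcr and a number, together with the atypical chemokine receptors Ackr1 to Ackr4. This rule found 67 of 54532 gene entries in the mouse and 55 of 33600 in the rat. The mouse entries carry 61 distinct symbols, since 11 entries share a symbol with another entry, either on an unplaced scaffold or on a chromosome. Their largest groups lie on chromosome 11 (14 entries), chromosome 9 (14 entries) and chromosome 5 (10 entries).

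The study sequenced messenger RNA in mouse hearts (12 libraries) and in primary cells of the rat (2 libraries). The mouse groups hold 3 libraries each: Sham, Model and the compounds LQ-40 and SQ-3, known only by these code names, which the submitters describe as structurally similar and tested against myocardial fibrosis. One rat library is labelled 3D-OGD-MF and the other combines 3 primary cell types grown in 2D at 1:1:1, namely cardiomyocytes, fibroblasts of the heart and macrophages derived from bone marrow. The labels used here give no strain, age, dose, time or procedure behind Model, and they do not say whether the compound groups had that procedure. They also do not say whether the libraries of a group are separate animals, so a p-value here reflects only how far these samples scatter, and that scatter may be technical.

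Chemokine ligands bind receptors coupled to inhibitory G proteins, and the bound receptor directs a cell up the gradient of its ligand. Inflammatory ligands are induced in injured tissue and bring in monocytes, neutrophils and T cells, whereas homeostatic ligands such as Cxcl12 keep cells in place in unperturbed tissue. Atypical receptors bind chemokines without classical G protein signalling and remove or store them. In the injured heart, ligands of Ccr2 are known for the recruitment of monocytes that become macrophages.

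Levels are given as scaled FPKM, that is, reads per gene length and library size, brought to a common scale by a median-of-ratios factor. Differences and their standard errors (SE) are on the scale of log2(scaled FPKM + 1), which understates the change of weakly expressed genes. A mouse gene was tested if 3 or more of the 12 libraries had 1 FPKM or more of it, and a gene was called at a Benjamini-Hochberg adjusted p under 0.05 in a limma fit over all 13000 tested genes. Of the 67 chemokine entries 33 were tested and 34 were not. Of the untested ones 7 were at 0 in every library, 6 reached 1 scaled FPKM in some library, and none of the others exceeded 0.935.

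The mouse libraries held 13085370 to 16698987 reads on genes, of which 10.8% to 23.6% were mitochondrial. Cardiomyocyte markers were abundant in all of them, with a summed level of 4 genes between 5043 and 13486 scaled FPKM. Library LQ-40 2 stood apart: it held lung epithelium markers at a summed level of 419.3 scaled FPKM, where no other mouse library exceeded 0.444. Library LQ-40 3 was also unusual, in several genes of the neutrophil axis. Leaving out either library brought no chemokine entry past the threshold in any comparison with LQ-40. For Cxcl9, Ccl11, Ccl12, Ccl8 and Cxcl13 against Model, differences without each are given beside those with all libraries. In pieces of tissue a change in the number of cells of a type and a change in RNA per cell cannot be told apart.

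The first comparison, Model against Sham, asks which chemokine genes differ in the Model heart. The ligands Ccl8, Cxcl16 and Cx3cl1, the receptors Ccr1, Cxcr4 and Ackr2, and an unplaced copy of Ccl21c were higher in Model. The ligands Ccl12, Ccl11 and Cxcl9 were lower. These are 10 of 33 tested entries (30.3%), against 38.9% of all tested genes, so the called share of chemokine genes was below the background. For the 7 higher entries (21.2%) the background was 20.9%, and for the 3 lower ones (9.09%) it was 18.0%. The median log2 difference over the 33 entries was 0.61 against 0.025 over all genes. Cxcl1, Cxcl5, Cxcl13, Cxcr6 and Ackr1, all with positive differences, were under 1 scaled FPKM in every Sham library. They passed the filter only through libraries of other groups, so the median is not free of the filter. Limma-voom, run on the recovered reads without the median-of-ratios factors, also called 10 entries, the same 10.

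**Figure D1:**
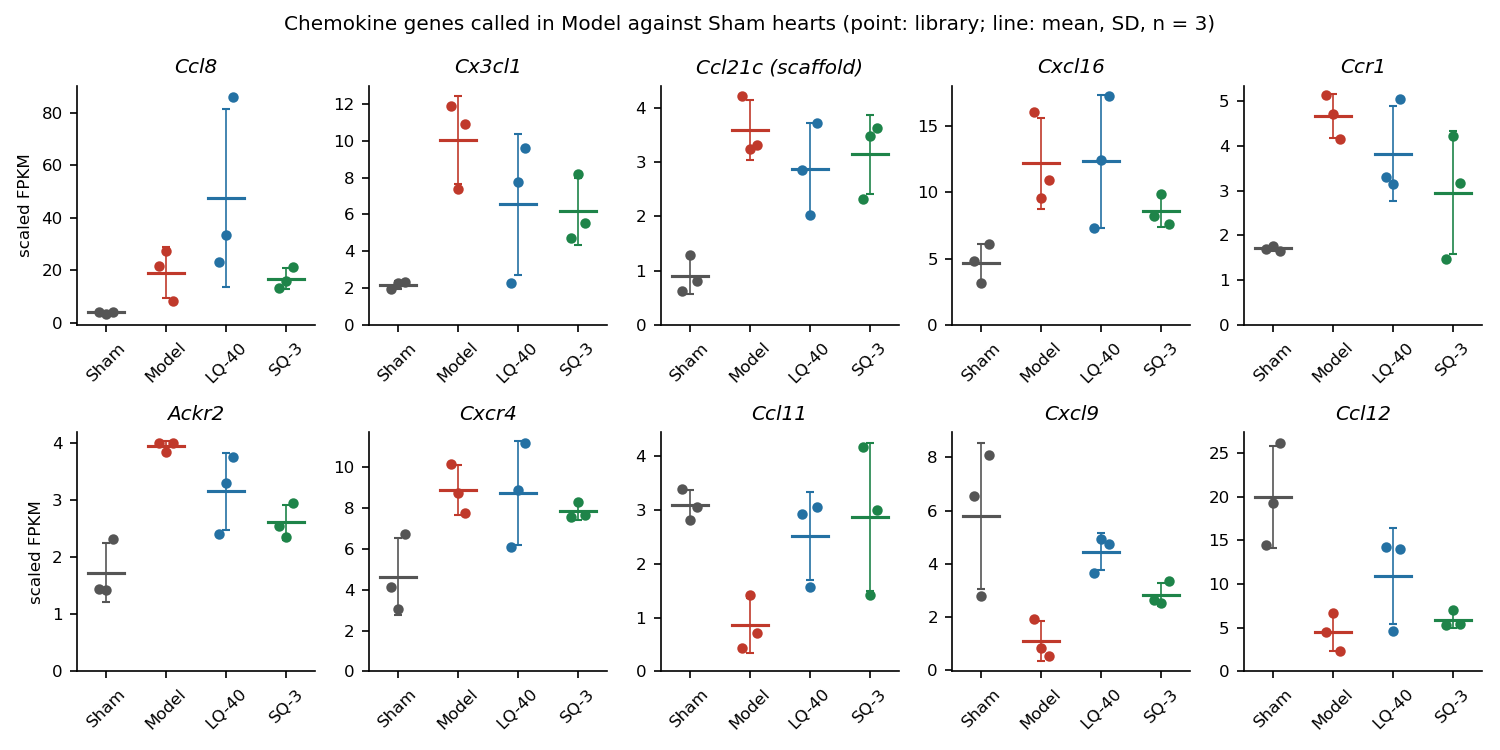
Scaled FPKM in each library (points) with the group mean and SD, for the 10 chemokine entries called between Model and Sham. Each panel is 1 gene and the x axis gives the groups Sham, Model, LQ-40 and SQ-3. In all 10 panels the Sham and Model points do not overlap, and LQ-40 and SQ-3 points spread over part of the range between them or beyond it, as for Ccl8 in LQ-40.

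Of the monocyte chemoattractant proteins all 4 members were tested, and neighbours on chromosome 11 moved in opposite directions. Ccl12, known as MCP-5, lies at chr11:82101845-82103400 on the mm10 build, and Ccl8, known as MCP-2, at chr11:82115185-82116799. Both are on the plus strand, 11784 bases apart. The 250 bases before each start are shown because these genes sit side by side and differed in direction. They were taken from the RefSeq table for GRCm38.p6, the assembly also called mm10, at chr11:82101595-82101844 for Ccl12 and chr11:82114935-82115184 for Ccl8, and they run 5′ to 3′ on the plus strand. Capitals mark matches of the letters TATAAA.
Ccl12: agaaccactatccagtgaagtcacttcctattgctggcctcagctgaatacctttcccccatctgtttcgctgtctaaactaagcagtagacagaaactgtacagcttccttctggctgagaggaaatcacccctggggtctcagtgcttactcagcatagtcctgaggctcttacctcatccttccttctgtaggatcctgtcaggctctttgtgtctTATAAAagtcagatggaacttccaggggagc
Ccl8: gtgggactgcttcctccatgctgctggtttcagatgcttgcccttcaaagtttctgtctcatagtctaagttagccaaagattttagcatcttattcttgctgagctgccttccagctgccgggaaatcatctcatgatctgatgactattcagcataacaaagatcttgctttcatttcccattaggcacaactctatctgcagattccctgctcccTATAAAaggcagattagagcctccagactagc

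Both stretches hold TATAAA close to the start, from 31 to 26 bases before it in Ccl12 and from 32 to 27 bases before it in Ccl8. Searched on both strands, TATAAA occurs in 12.4% of 32851 promoter stretches of this length. Neither stretch holds any of the 3 other motifs searched, described with Cxcl10. A match of letters describes the sequence only.

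Ccl8 stood at 4.27, 3.34 and 4.30 scaled FPKM in the 3 Sham libraries. In Model it stood at 21.6, 27.2 and 8.25. Every Model library was thus above every Sham library, with Model 3 the nearest to Sham. The means were 3.97 ± 0.543 (SD, n = 3) and 19.0 ± 9.75 (SD, n = 3). The difference of 1.87 (SE 0.47) is 3.65-fold, with a limma adjusted p of 0.0113. These values rest on 23 to 28 reads in Sham and 72 to 208 reads in Model.

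Ccl12 went the other way. Its levels were 14.5, 19.2 and 26.1 scaled FPKM in Sham and 4.55, 6.73 and 2.29 in Model, so the groups were well apart. The means were 19.95 ± 5.85 and 4.52 ± 2.22 (SD, n = 3 each). Its log2 difference of -1.97 (SE 0.40) is 3.92-fold lower, with a limma adjusted p of 0.00463.

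Ccl2 and Ccl7 are the best-known ligands of Ccr2 and lie in the same cluster, with Ccl7 8258 bases from Ccl2. Neither passed the test. Ccl2, known as MCP-1, averaged 3.73 ± 0.829 in Sham and 4.45 ± 1.62 in Model (SD, n = 3 each), a log2 difference of 0.17 with a limma adjusted p of 0.754. Ccl7 averaged 7.29 ± 2.59 in Sham and 3.59 ± 2.43 in Model (SD, n = 3 each), a log2 difference of -0.99 with a limma adjusted p of 0.217. Their libraries overlapped between the groups.

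Fractalkine, Cx3cl1, and Cxcl16 are the only chemokines made with a membrane anchor, from which proteases release a soluble form. Both were higher in Model. Cx3cl1, at chr8:94772009-94782427, stood at 1.94, 2.29 and 2.33 scaled FPKM in Sham and at 11.9, 7.36 and 10.9 in Model. The lowest Model library was thus more than 3 times the highest Sham library. Its log2 difference was 1.77 (SE 0.37), 3.42-fold, with a limma adjusted p of 0.00511.

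Cxcl16, at chr11:70453983-70459984, stood at 4.80, 3.15 and 6.07 scaled FPKM in Sham and at 16.1, 9.57 and 10.9 in Model. No Model library reached down to Sham. Model was 2.33-fold higher, a log2 difference of 1.22 (SE 0.29), with a limma adjusted p of 0.00839. Zmynd15, which overlaps Cxcl16 on the opposite strand, averaged 1.36 scaled FPKM over the 12 libraries, and the strand setting of the counting is not given in the sources used here.

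The receptors of these anchored ligands, Cx3cr1 and Cxcr6, had positive differences that did not pass. Cx3cr1, found on resident macrophages and patrolling monocytes, stood at 2.56, 2.36 and 3.41 scaled FPKM in Sham and at 13.4, 3.46 and 3.73 in Model, so that Model 1 alone was far above Sham. Its log2 difference was 0.84 with a limma adjusted p of 0.157. The gene model of Cx3cr1 spans Xirp1, Csrnp1 and Gorasp1 on the same strand, which makes its level uncertain. Cxcr6 averaged 0.426 ± 0.225 in Sham and 1.70 ± 0.802 in Model (SD, n = 3 each), with a log2 difference of 0.89 and a limma adjusted p of 0.0988. Cxcr6 passed with a pseudocount of 0.1 (adjusted p 0.0418) and with only the 2 groups in the fit (adjusted p 0.0197). It overlaps Fyco1 on the opposite strand, a gene at 33.8 scaled FPKM on average, so its level is uncertain.

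Of 19 signalling receptors 7 were tested and 2 were called, both higher in Model, where 20.9% of all tested genes were called higher. Cxcr6 and Cxcr3 were under 1 scaled FPKM in every Sham library and passed the filter only through other groups. Ccr1, a receptor of several inflammatory ligands on monocytes and neutrophils, lies at chr9:123962124-123968692. It stood at 1.70, 1.76 and 1.66 scaled FPKM in Sham and at 5.13, 4.70 and 4.16 in Model. Both groups were narrow and far from each other. Ccr1 was 2.09-fold higher in Model, a log2 difference of 1.06 (SE 0.23), with a limma adjusted p of 0.00632.

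Cxcr4, the receptor of Cxcl12, lies at chr1:128588199-128592293. It stood at 4.14, 3.08 and 6.72 scaled FPKM in Sham and at 10.2, 8.73 and 7.74 in Model. The groups did not overlap, though Sham 3 came close to Model 3. Cxcr4 was 1.81-fold higher, a log2 difference of 0.85 (SE 0.23), with a limma adjusted p of 0.0156. This call was lost without Sham 1 (adjusted p 0.0511), without Sham 2 (0.0587) and without Model 1 (0.0602), while all other alternatives kept it.

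Ccr2, the monocyte receptor for Ccl2, Ccl7 and Ccl12, missed the threshold. Its levels were 1.47, 0.670 and 0.731 scaled FPKM in Sham and 4.75, 2.66 and 1.52 in Model, and the highest Sham library nearly touched the lowest Model library. The log2 difference was 0.96 with a limma adjusted p of 0.0676. Ccr2 passed with a pseudocount of 0.1 (0.038), with only the 2 groups in the fit (0.0428) and without Model 3 (0.0418). Cxcr3, the T cell receptor of Cxcl9 and Cxcl10, did not pass, with a log2 difference of 0.41.

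Of the 4 atypical receptors all were tested and 1 was called. Ackr2, a scavenger that takes up and degrades inflammatory CC chemokines, lies at chr9:121898355-121911074. It stood at 1.44, 1.42 and 2.33 scaled FPKM in Sham and at 4.02, 3.85 and 4.01 in Model, with the Model libraries nearly equal. Ackr2 was 1.83-fold higher, a log2 difference of 0.88 (SE 0.15), with a limma adjusted p of 0.00210. Ackr3, which scavenges Cxcl12, was among the most abundant members and did not pass. It stood at 40.7, 32.8 and 34.9 scaled FPKM in Sham and at 25.0, 34.2 and 35.3 in Model, with overlapping groups and a limma adjusted p of 0.426. Ackr1, which carries chemokines across venular endothelium, averaged 0.402 in Sham and 1.48 in Model, with a limma adjusted p of 0.152. Cadm3, at 1.42 scaled FPKM on average, overlaps Ackr1 on the same strand, so the level of Ackr1 is uncertain. Ackr4, which scavenges Ccl19, Ccl21 and Ccl25, averaged 3.53 and 4.16, with a limma adjusted p of 0.593. Ackr4 overlaps Acad11 on the opposite strand.

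The ligands Cxcl9 and Cxcl10 recruit T cells and natural killer cells through Cxcr3 and are classic targets of interferon gamma. They lie 18558 bases apart on chromosome 5, Cxcl9 at chr5:92321347-92328079 and Cxcl10 at chr5:92346638-92348889. Cxcl9 was lower in Model. It stood at 6.53, 2.78 and 8.08 scaled FPKM in Sham and at 1.95, 0.843 and 0.544 in Model. The groups did not overlap, although both were widely spread. The log2 difference was -1.65 (SE 0.31), 3.14-fold lower, with a limma adjusted p of 0.00320. Cxcl10 averaged 1.17 ± 0.971 in Sham and 0.902 ± 1.10 in Model (SD, n = 3 each), with overlapping libraries, a log2 difference of -0.25 and a limma adjusted p of 0.635. It overlaps Art3 on the opposite strand, a gene at 48.7 scaled FPKM on average.

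The 250 bases before the starts of these ligands, at chr5:92328080-92328329 for Cxcl9 and chr5:92348890-92349139 for Cxcl10, are shown because only Cxcl9 was called. They are from RefSeq on GRCm38.p6 and run 5′ to 3′ on the minus strand, on which both genes lie. The motifs searched were TTCNNNGAA, known as the gamma-activated site, a pair of GAAA separated by 2 bases, part of the interferon-stimulated response element, the NF-kB consensus, and TATAAA, each on both strands. Capitals mark their matches.
Cxcl9: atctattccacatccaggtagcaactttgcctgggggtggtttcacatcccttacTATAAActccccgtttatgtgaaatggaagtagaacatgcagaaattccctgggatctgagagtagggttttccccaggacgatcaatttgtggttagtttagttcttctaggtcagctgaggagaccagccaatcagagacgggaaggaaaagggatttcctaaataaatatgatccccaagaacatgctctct
Cxcl10: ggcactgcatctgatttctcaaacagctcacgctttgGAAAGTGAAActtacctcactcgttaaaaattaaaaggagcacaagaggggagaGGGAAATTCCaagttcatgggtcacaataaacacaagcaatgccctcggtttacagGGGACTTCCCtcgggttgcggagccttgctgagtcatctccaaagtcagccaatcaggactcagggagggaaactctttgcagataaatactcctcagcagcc

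The Cxcl10 stretch holds GAAAGTGAAA from 213 to 204 bases before the start, and NF-kB consensus matches from 159 to 150 and from 103 to 94 bases before it. The Cxcl9 stretch holds TATAAA from 195 to 190 bases before the start and none of the other motifs in this window. Over all 32851 stretches of this length, 7.02% hold TTCNNNGAA, 2.98% hold the GAAA pair and 3.90% hold the NF-kB consensus. A promoter entry was found for 23 of the 33 tested symbols, of which 1 holds TTCNNNGAA, 2 hold the GAAA pair, 4 hold the NF-kB consensus and 9 hold TATAAA.

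The ligands of Ccr1, Ccr3 and related receptors attract macrophages, T cells and eosinophils, and all 7 were tested. Ccl11, known as eotaxin-1 and a ligand of the eosinophil receptor Ccr3, was the only one called. It lies at chr11:82057823-82062955, between Ccl7 and Ccl12. It stood at 3.38, 2.81 and 3.04 scaled FPKM in Sham and at 0.430, 1.42 and 0.704 in Model, so that every Model library was below every Sham library. The log2 difference was -1.17 (SE 0.28), 2.25-fold lower, with a limma adjusted p of 0.00902. The Model values rest on only 8 to 23 reads.

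Ccl6, a ligand of Ccr1 made by myeloid cells, was the most abundant of this group and did not pass. It stood at 24.4, 13.4 and 18.8 scaled FPKM in Sham and at 18.0, 57.0 and 16.1 in Model. Its Model mean was set by Model 2, and the limma adjusted p was 0.409. Ccl9 (log2 difference 0.62), Ccl5 (0.91), Ccl24 (0.43), Ccl3 (0.12) and Ccl4 (-0.15) did not pass either.

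Homeostatic ligands numbered 18 entries, of which only 5 were tested. Cxcl12, at chr6:117168535-117181367, had the highest mean of all members over the 12 libraries. It stood at 25.2, 32.0 and 23.0 scaled FPKM in Sham and at 29.6, 35.7 and 29.9 in Model, with overlapping groups, a log2 difference of 0.25 and a limma adjusted p of 0.454. Cxcl14, a ligand made by fibroblasts and epithelia, lies at chr13:56288643-56296551. It stood at 34.7, 19.6 and 26.6 in Sham and at 42.9, 21.9 and 29.8 in Model, again with overlap and a limma adjusted p of 0.611. Neither of these abundant ligands passed the test.

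Ccl21 attracts T cells and dendritic cells through Ccr7 and is secreted by lymphatic endothelium. Its genes exist in near-identical copies, so reads may be split between copies or dropped and the values are uncertain. Ccl21c on the unplaced scaffold GL456350.1 (211325 to 212455) stood at 0.629, 1.28 and 0.814 scaled FPKM in Sham and at 4.22, 3.24 and 3.31 in Model. These groups did not overlap, and the log2 difference was 1.27 (SE 0.19), 2.42-fold, with a limma adjusted p of 0.00123. Ccl21c could pass the filter through the groups where it was high, since only 1 Sham library reached 1 scaled FPKM.

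Ccl21a on scaffold JH584294.1 varied far more. It stood at 2.32, 4.62 and 3.51 scaled FPKM in Sham and at 12.6, 81.2 and 4.81 in Model. It was also uneven in the other groups, at 63.4, 1.57 and 6.65 in LQ-40 and at 14.2, 16.5 and 57.0 in SQ-3. One library in each of the 3 groups was thus far above the other two, and the Model difference of 2.09 had a limma adjusted p of 0.168. Markers of lymphatic endothelium did not move together: Prox1 was 8.12 to 9.48 in Sham and 4.98 to 6.10 in Model, Flt4 was 4.36 to 6.01 and 9.23 to 11.3, and Pdpn was 2.93 to 3.43 and 8.09 to 20.03. Their part in the Ccl21 values was not tested.

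Of 5 neutrophil ligands of Cxcr2 only Cxcl1 and Cxcl5 were tested, and neither passed in Model. Cxcl1 averaged 0.589 in Sham and 1.64 in Model, with a limma adjusted p of 0.375. Cxcl5 averaged 0.0819 and 0.724, with a limma adjusted p of 0.551. The single lymphotactin entry, Xcl1, both ligands of Ccr4 and the 3 remaining ligands were under the filter.

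**Figure D2:**
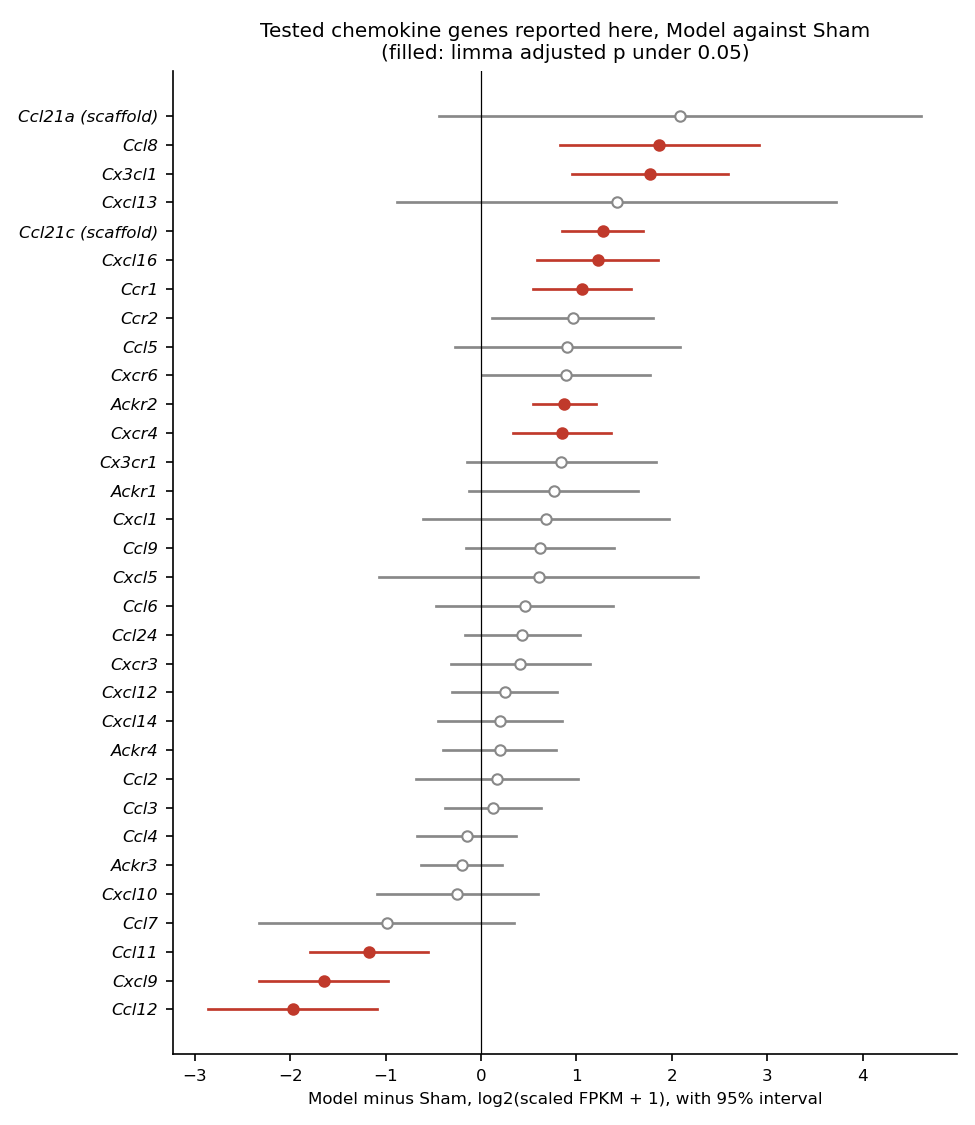
Model minus Sham difference in log2(scaled FPKM + 1) for the tested chemokine entries reported here, with the 95% interval from the limma fit. Called entries are marked; the differences run from -1.97 for Ccl12 to 2.09 for the scaffold copy of Ccl21a, whose interval is the widest.

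The precision was limited for many members. The 95% interval of the Model minus Sham difference lay within 2-fold in either direction for 7 of the 33 tested entries and reached 2-fold or more for 26. The 2 groups were without overlap for 16 entries (48.5%), against 55.5% of all tested genes.

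Genes of other cell types moved along with these groups. The summed level of 9 macrophage markers was 248 to 380 scaled FPKM in Sham and 547 to 877 in Model, and LQ-40 (607 to 1195) and SQ-3 (531 to 862) overlapped Model. That of 4 fibroblast markers was 276 to 303, 1285 to 1474, 504 to 1464 and 770 to 904 in the order Sham, Model, LQ-40 and SQ-3. That of 4 cardiomyocyte markers was 11624 to 13486, 6389 to 7562, 5043 to 9794 and 7389 to 9966. Single genes carried the first sums: Lyz2 was 180 to 297 in Sham and 435 to 730 in Model, and Fcgr1 was lower in Model (1.27 to 2.87) than in Sham (3.25 to 5.24). Col1a1 was 785 to 1020 in Model and 287 to 416 in SQ-3, whereas Dcn, Pdgfra and Tcf21 overlapped between these groups. T cell markers were low, with sums of 5 genes of 0.279 to 1.29 in Sham and 1.53 to 5.29 in Model, and the monocyte sums of 4 genes overlapped, at 4.60 to 8.61 and 1.13 to 8.54. The part of these cell types in the chemokine differences was not tested.

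The proteins that carry, trim or answer the chemokine signal were read from a list of 54 genes, of which 49 were tested. In Model 24 of them were higher and 2 lower, where 20.9% and 18.0% of all tested genes were, and the median log2 difference was 0.43 against 0.025 over all genes. The count of 26 dropped to 16 without Sham 1, to 15 without Sham 2 and to 14 without Model 1. Sdc4, a heparan sulphate proteoglycan of the kind that holds chemokines on the cell surface, averaged 5.18 ± 1.02 in Sham and 19.5 ± 1.00 in Model (SD, n = 3 each), 3.34-fold higher with a limma adjusted p of 0.000265. Sdc1, a related proteoglycan, was 4.82-fold higher (limma adjusted p 0.000882). Mmp2, a matrix protease that cleaves several chemokines, averaged 42.5 ± 8.76 and 241 ± 7.22 (SD, n = 3 each), 5.65-fold higher with a limma adjusted p of 0.000501. Ccrl2, an atypical receptor-like protein that binds chemerin, went down from 8.03 ± 1.297 to 3.07 ± 0.383 (SD, n = 3 each), 2.21-fold lower with a limma adjusted p of 0.000362. The other gene lower in Model was Rgs2, a regulator of G protein signalling, which was 1.77-fold lower (limma adjusted p 0.00949).

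The upstream pathways that control chemokine genes were read in the same way. Of 12 interferon genes, all tested, 6 were lower and 2 higher in Model, where 18.0% and 20.9% of all tested genes were. The median log2 difference was -0.26, against 0.025 over all genes. Irf7 was 13.3-fold lower (limma adjusted p 4.45e-05), Stat2 3.89-fold lower (0.000577) and Irf9 2.84-fold lower (0.000157). The higher ones were the receptor chains Ifnar1 and Ifngr1. Ifngr1 averaged 32.7 in Sham and 50.3 in Model, and it was named after its values were seen. Ifngr2, the other chain of the same receptor, was lower, at 48.9 in Sham and 33.2 in Model (limma adjusted p 0.0274).

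Of 11 tested genes of the NF-kB axis 9 were higher and 0 lower in Model, where 20.9% and 18.0% of all tested genes were. The median log2 difference was 0.64, against 0.025 over all genes. Il1r1, the receptor of interleukin-1, averaged 3.35 ± 0.276 in Sham and 13.9 ± 1.15 in Model (SD, n = 3 each), 3.43-fold higher with a limma adjusted p of 0.000703. Tnfrsf1a, a receptor of tumour necrosis factor, was 2.08-fold higher (0.00197), Tnfaip3, a feedback inhibitor of the pathway, 1.56-fold (0.00858) and Nfkbiz, an atypical inhibitor protein, 1.94-fold (0.0114). The count of 9 fell to 4 without Sham 1, to 5 without Sham 2 and to 4 without Model 1. None of these lists had a called gene in the 3 comparisons that follow. Cmklr1, the receptor of chemerin, came close to the threshold. It was 2.41-fold higher in Model than in Sham (limma adjusted p 0.000893). Against Model it was 1.85-fold lower in LQ-40 (0.0507) and 1.89-fold lower in SQ-3 (0.0566).

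The comparisons of LQ-40 and of SQ-3 with Model ask whether the compounds moved these genes. No chemokine entry was called in either. For LQ-40 this is 0 of 33, against 0.669% of all tested genes (0.185% higher and 0.485% lower), with 6 entries at an unadjusted limma p under 0.05 and 0 called by limma-voom. For SQ-3 it is 0 of 33, against 0.346% (0.0769% higher and 0.269% lower), with 4 entries at an unadjusted p under 0.05 and 0 called by limma-voom. Both comparisons share the Model libraries. A difference of 2-fold was within the 95% interval for 21 of the 33 entries in each comparison, so for most members the data set no bound below 2-fold.

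**Figure D3:**
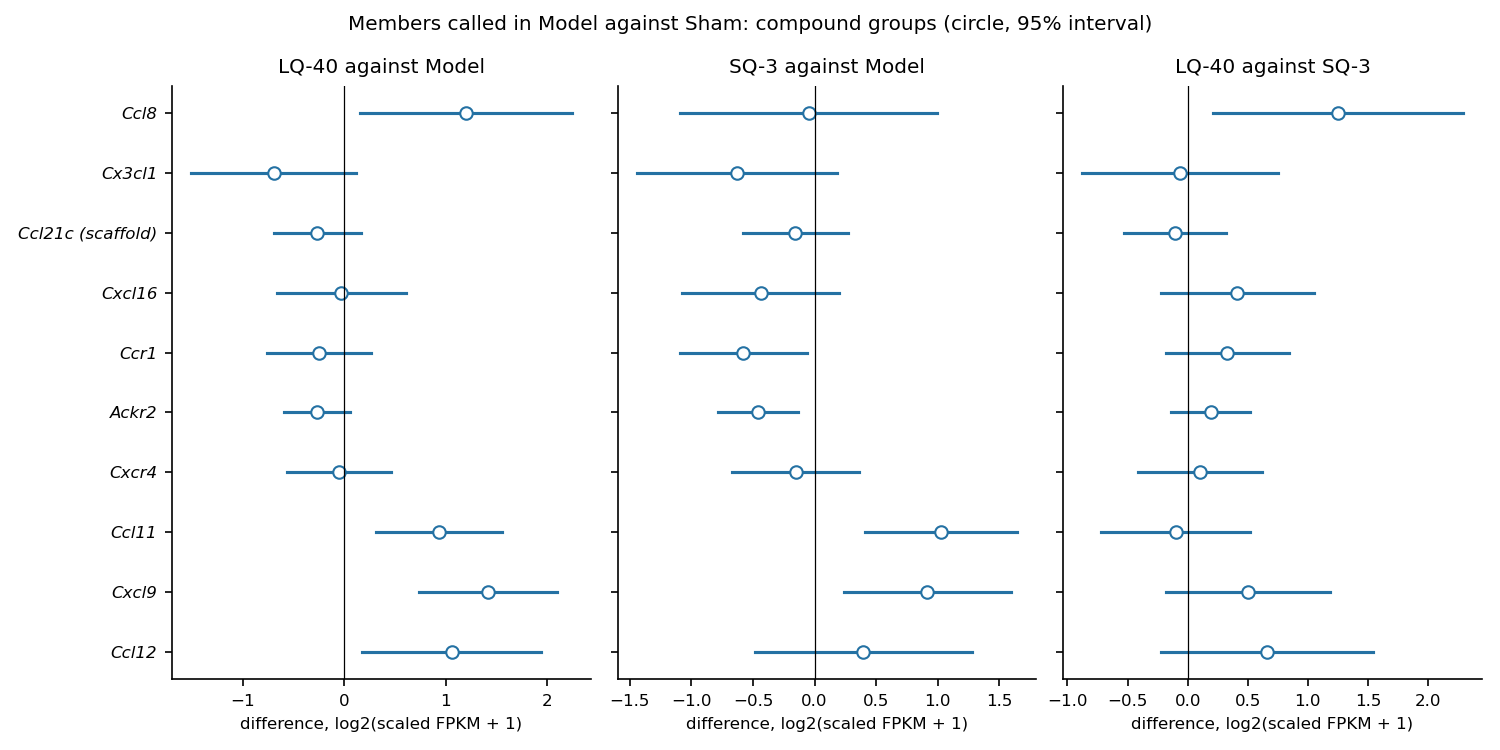
Differences in log2(scaled FPKM + 1) with 95% intervals from limma for the 10 chemokine entries called between Model and Sham, in LQ-40 against Model, SQ-3 against Model and LQ-40 against SQ-3. None of these differences passed after adjustment, and the smallest adjusted p among them was 0.0736, for Cxcl9 in LQ-40 against Model.

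Cxcl9 came nearest to the threshold. It stood at 3.66, 4.95 and 4.76 scaled FPKM in LQ-40, all above the Model values of 1.95, 0.843 and 0.544. The log2 difference was 1.42 (95% interval 0.74 to 2.10), with a limma adjusted p of 0.0736. Without LQ-40 2, the library with lung genes, it was 1.35 with an adjusted p of 0.188, and without LQ-40 3 it was 1.37 with an adjusted p of 0.0977. In SQ-3 it stood at 2.66, 2.54 and 3.34, again above every Model library, with a log2 difference of 0.92 and a limma adjusted p of 0.258.

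Ccl11 stood at 2.93, 1.57 and 3.04 scaled FPKM in LQ-40 and at 4.17, 1.42 and 2.99 in SQ-3. Against Model this gave log2 differences of 0.93 (limma adjusted p 0.195) and 1.03 (95% interval 0.41 to 1.65, limma adjusted p 0.177). The LQ-40 difference was 1.14 without LQ-40 2 and 0.81 without LQ-40 3. The lowest library of each compound group lay just above the highest Model library, at 1.42.

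Ccl12 stood at 14.2, 4.57 and 14.0 in LQ-40 and at 5.25, 7.02 and 5.43 in SQ-3. The LQ-40 group thus held 2 libraries near the Sham range and 1 in the Model range, while SQ-3 overlapped Model. LQ-40 differed from Model by 1.06 on the log2 scale (limma adjusted p 0.314), and by 1.54 (0.101) without LQ-40 2 and 0.82 (0.331) without LQ-40 3. SQ-3 differed from Model by 0.40.

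Ccl8 was highest in LQ-40, at 23.0, 33.4 and 86.0 scaled FPKM, and stood at 13.1, 16.1 and 21.1 in SQ-3. The LQ-40 group overlapped Model and was led by LQ-40 3. Its log2 difference from Model was 1.20 (95% interval 0.16 to 2.24) with a limma adjusted p of 0.334. Without LQ-40 3 it was 0.67, and without LQ-40 2 it was 1.34.

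The anchored ligands, higher in Model, varied widely within the compound groups. Cx3cl1 stood at 2.26, 7.74 and 9.62 in LQ-40, with LQ-40 1 at the Sham level, and at 4.74, 8.21 and 5.53 in SQ-3. Cxcl16 stood at 7.31, 12.4 and 17.3 in LQ-40 and at 8.24, 9.92 and 7.59 in SQ-3. Both genes overlapped Model in each compound group.

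Of the receptors called between Model and Sham, Ccr1 and Cxcr4 overlapped Model in each compound group, and Ackr2 did so in neither. Ccr1 stood at 3.30, 3.14 and 5.05 in LQ-40 and at 1.48, 4.21 and 3.17 in SQ-3, with a log2 difference of SQ-3 from Model of -0.58 (limma adjusted p 0.315). Ackr2 stood at 2.42, 3.30 and 3.76 in LQ-40 and at 2.55, 2.35 and 2.95 in SQ-3. All 6 of these were below the lowest Model library, 3.85, and the log2 difference of SQ-3 from Model was -0.46 with a limma adjusted p of 0.244. Cxcr4 stood at 6.11, 8.88 and 11.2 in LQ-40 and at 7.56, 8.30 and 7.67 in SQ-3. The scaffold copy of Ccl21c stood at 2.85, 2.03 and 3.73 in LQ-40 and at 2.31, 3.49 and 3.64 in SQ-3.

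The most abundant members showed no called change either. Cxcl12 stood at 38.9, 23.7 and 49.7 in LQ-40 and at 36.05, 23.8 and 35.0 in SQ-3. Ackr3 stood at 28.8, 17.7 and 25.1 in LQ-40 and at 26.5, 27.7 and 34.9 in SQ-3. Ccl6 stood at 32.1, 29.8 and 42.6 in LQ-40 and at 17.6, 16.0 and 29.5 in SQ-3. Cxcl14 stood at 14.2, 28.1 and 21.7 in LQ-40 and at 18.0, 21.0 and 25.8 in SQ-3, and each of these genes overlapped Model in both compound groups.

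Over the list, the median log2 difference of LQ-40 from Model was 0.23 against 0.0066 over all genes. It was 0.45 without LQ-40 1, 0.34 without LQ-40 2 and -0.11 without LQ-40 3, so its sign rested on LQ-40 3. For SQ-3 the median was -0.049 against -0.0095, and 0.026 without Model 1. Libraries did not overlap for 5 entries (15.2%) in LQ-40 against Model, where the background was 18.1%, and for 3 entries (9.09%) in SQ-3 against Model, where it was 26.4%.

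A further comparison set the compounds against each other over all 33 tested entries, 33 differences in all, with p-values adjusted over the 13000 tested genes. None was called, against 0% of all tested genes, with 1 entry at an unadjusted limma p under 0.05 and 0 called by limma-voom. That entry was Ccl8, higher in every LQ-40 library than in every SQ-3 library. Its log2 difference of LQ-40 over SQ-3 was 1.25 (95% interval 0.21 to 2.29, limma adjusted p 1.00), and 0.72 without LQ-40 3. For Cxcl9 the difference was 0.50 (95% interval -0.18 to 1.18). The intervals lay within 2-fold for 15 entries and reached 2-fold or more for 18. Libraries did not overlap for 4 entries (12.1%), against a background of 6.12%, and these were Ccl6, Ccl8, Cxcl9 and Ccl4. The median log2 difference was 0.33 and became 0.02 without LQ-40 3.

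Several members were high in a single library or in 1 group. Cxcl13, which draws B cells into lymphoid follicles through Cxcr5, lies at chr5:95956951-95961068. It stood at 0.339, 0.129 and 0.136 scaled FPKM in Sham, and at 1.36, 11.7 and 0.102 in Model. LQ-40 held 13.8, 18.0 and 14.5, and SQ-3 held 1.47, 0.695 and 32.8. All LQ-40 libraries were above all Model libraries, and SQ-3 3 was the highest of all. The log2 difference of LQ-40 from Model was 2.35 (95% interval 0.05 to 4.65), with a limma adjusted p of 0.401, and it was 2.24 without LQ-40 2 and 2.39 without LQ-40 3. The summed level of 4 B cell markers was 3.56 to 5.73 in LQ-40, 1.19 to 2.55 in Model and 10.3 in SQ-3 3, and its part in the Cxcl13 values was not tested.

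**Figure D4:**
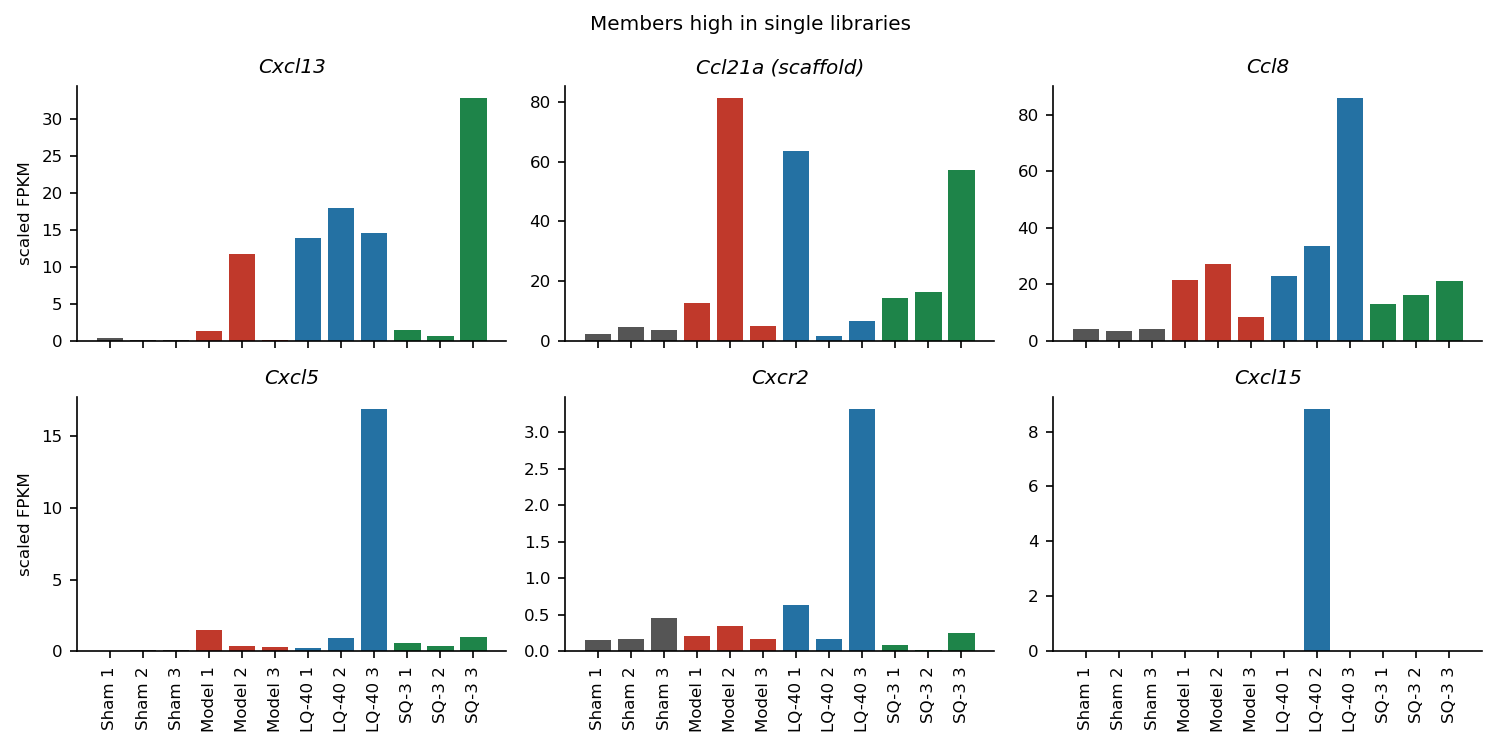
Scaled FPKM of Cxcl13, the scaffold copy of Ccl21a, Ccl8, Cxcl5, Cxcr2 and Cxcl15 in each of the 12 mouse libraries, 1 bar per library, with a linear axis from 0 in each panel. Cxcl5 and Cxcr2 are high in LQ-40 3 alone and Cxcl15 in LQ-40 2 alone, whereas Ccl21a is high in 1 library of each group other than Sham.

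Library LQ-40 3 was high in the neutrophil axis. Cxcl5 reached 16.9 scaled FPKM there and did not exceed 1.498 in any other library. Cxcl1 reached 9.45 there and did not exceed 2.50 elsewhere. Cxcr2, the neutrophil receptor of both, reached 3.32 and did not exceed 0.633 elsewhere.

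The monocyte ligands Ccl2 (11.6) and Ccl7 (20.3) were also highest in LQ-40 3. The summed level of 5 neutrophil markers was 71.0 in LQ-40 3 and 62.3 in LQ-40 1, against 3.30 to 19.7 in the other 10 libraries. S100a8 (18.3 and 20.4) and S100a9 (48.3 and 35.2) made up most of these sums. Mmp8 was also highest in these libraries, at 1.97 and 1.27. Retnlg was 2.31 in LQ-40 3, below 3.44 in Sham 3, and 4.69 in LQ-40 1. LQ-40 1 shared the neutrophil markers but held Cxcl5 at 0.249 and Cxcl1 at 0.782. Ly6g, a defining neutrophil marker, was at 0.82 in LQ-40 1, 0.20 in SQ-3 1, 0.142 in Model 2 and 0.066 in LQ-40 3, and at 0 in the other 8 libraries. The part of neutrophils in these values was not tested.

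Cxcl15, known as lungkine for its expression in lung epithelium, was at 8.83 scaled FPKM in LQ-40 2, on 298 reads. The other 11 libraries held 1 read of it between them. Sftpc, the surfactant gene of lung alveolar cells, stood at 337.4 scaled FPKM in the same library and did not exceed 0.0762 in any other mouse library. Cxcl15 was under the filter and entered no test.

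The rat libraries ask how the 3D culture labelled 3D-OGD-MF differs from the same cell types in 2D. There is 1 library of each, so no test was made and the intervals cover counting error only. The culture format and any other treatment of the 3D library cannot be told apart. Of 55 rat members 19 had at least 1 FPKM in either library and were compared, 21 had no read in either library, and none of those left out exceeded 0.981. Inflammatory ligands were far higher in 3D: 16 of the 19 (84.2%) were past 2-fold higher on the log2(scaled FPKM + 1) scale, against 5.03% of 13405 genes compared. Of these 16, 9 were under 1 FPKM in 2D, so they were compared only through the 3D library, where they are high. Of the 10 members with at least 1 FPKM in 2D, 7 were past 2-fold higher. The share of all genes with at least 1 FPKM in 2D was not computed, so this count has no background. None of the 19 was past 2-fold lower, against 2.44%. The median log2 difference of the 19, which include those 9, was 3.06 against 0.0043 over all genes compared.

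**Figure D5:**
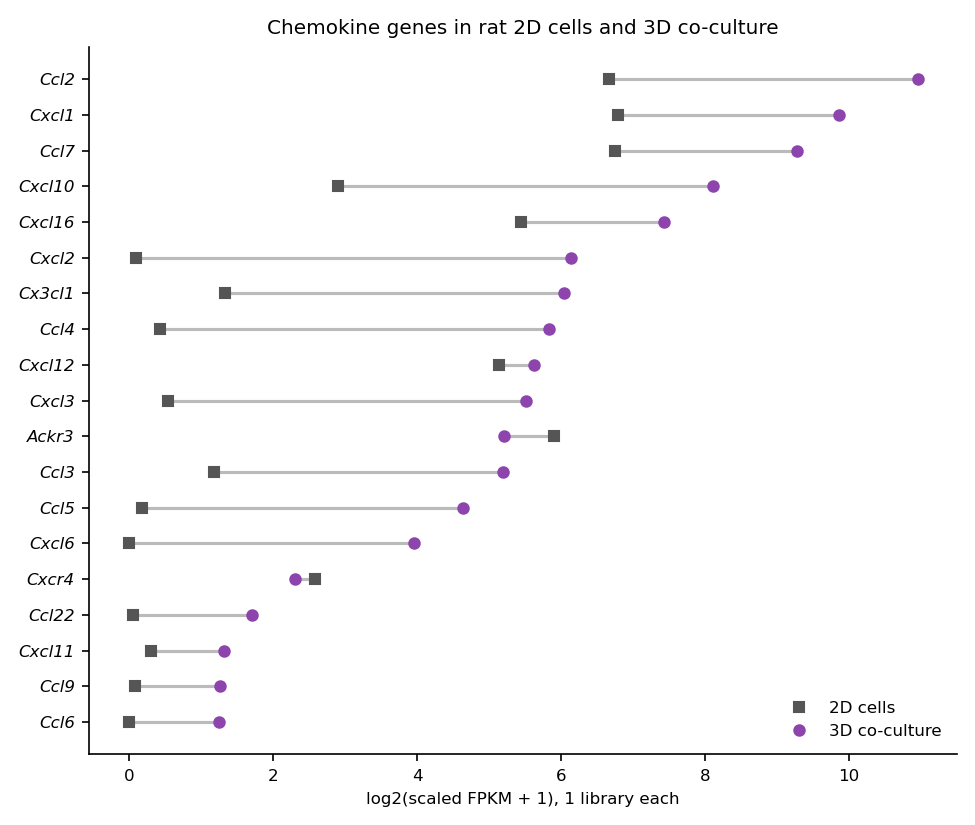
Scaled FPKM of the 19 compared rat chemokine genes in the 2D and 3D libraries, drawn as log2(scaled FPKM + 1), 1 library each. All genes but Cxcl12, Cxcr4 and Ackr3 are past 2-fold higher in 3D.

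Ccl2 had the highest level of all members in 3D. Ccl2 went from 100.3 to 1977 scaled FPKM, a read ratio of 19.7 (95% exact binomial interval 18.6 to 20.9). Ccl7 went from 107 to 618, a ratio of 5.80 (5.45 to 6.17). Both were already well expressed in 2D.

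The neutrophil ligands of Cxcr2 started from very different levels. Cxcl1, the highest of all members in 2D, went from 110.0 to 924 scaled FPKM, a ratio of 8.40 (7.94 to 8.89). Cxcl3 went from 0.453 to 44.7, a ratio of 98.6 (51.7 to 216). Cxcl2 went from 1 read to 867 reads, that is from 0.0689 to 69.3 scaled FPKM, and its ratio of 1007 has a wide interval of 180.2 to 39814. Cxcl6 had 0 reads in 2D and 275 in 3D. With a floor of 3 reads the ratio of Cxcl6 was 106, and its exact binomial interval began at 86.0.

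The ligands of Cxcr3 were higher as well. Cxcl10 went from 6.51 to 275 scaled FPKM, a ratio of 42.2 (34.6 to 52.1). Cxcl11, a further interferon-inducible ligand of Cxcr3, had 5 and 27 reads, a ratio of 6.27 (2.38 to 20.9). Of the anchored ligands, Cx3cl1 went from 1.51 to 64.7, a ratio of 42.8 (33.4 to 55.7), and Cxcl16 from 42.7 to 171, a ratio of 4.004 (3.73 to 4.30).

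The ligands of Ccr1 and related receptors went up from a handful of reads. Ccl3, known as MIP-1 alpha, went from 1.27 to 35.5 scaled FPKM, a ratio of 28.0 (16.1 to 53.1). Ccl4 went from 3 reads to 413, a ratio of 159.9 (54.3 to 778), and Ccl5 from 1 read to 152. Ccl9 had 1 and 21 reads, Ccl22, a ligand of Ccr4, had 1 and 46 reads, and Ccl6 had 0 and 22 reads. With the floor of 3 reads the ratio of Ccl6 was 8.52, and its exact binomial interval began at 6.36.

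The Cxcl12 axis stood apart from the inflammatory ligands. Cxcl12 went from 34.3 to 48.2 scaled FPKM, a ratio of 1.41 (1.33 to 1.48). Its receptor Cxcr4 went from 5.02 to 3.97, a ratio of 0.790 (0.589 to 1.06) whose interval includes 1. The scavenger Ackr3 went from 58.9 to 36.1, a ratio of 0.612 (0.562 to 0.667). Cxcr4 and Ackr3 were the only receptors compared in the rat.

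Markers of the cell types named on the rat labels were uneven. Col1a1, a collagen gene of fibroblasts, stood at 2007 scaled FPKM in 2D and 1788 in 3D. Other fibroblast markers differed more, with Dcn at 76.7 and 254, Pdgfra at 4.01 and 11.8, and Tcf21 at 13.1 and 5.82. The cardiomyocyte genes Myh6 (1.95 and 1.58) and Tnnt2 (6.53 and 6.81) were low in both. The macrophage genes Lyz2 (18.4 and 11.6), Cd68 (4.05 and 5.25), Csf1r (3.84 and 2.43) and Adgre1 (0.678 and 1.31) were low as well, and the sum of 8 macrophage markers was 27.8 in 2D and 21.3 in 3D. The part of macrophages in the ligand differences was not tested.

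Upstream genes in the rat were read from the lists used in the mouse. Over all genes compared, 5.03% were past 2-fold higher in 3D and 2.44% past 2-fold lower, and the median log2 difference was 0.0043. The list medians were 1.63 for the NF-kB axis, 0.63 for the interferon genes and 0.19 for the signalling and control genes. Of 11 compared genes of the NF-kB axis 8 were past 2-fold higher in 3D, among them Il1b, which encodes interleukin-1 beta, with a ratio of 96.6 (46.6 to 241), and Tnfaip3 with a ratio of 7.30 (6.51 to 8.20). Of 12 interferon genes 3 were past 2-fold higher, namely Irf1 (ratio 3.40), Irf7 (3.10) and Ifngr1 (2.12). Of 43 compared signalling and control genes 7 were past 2-fold higher, among them Mmp9, a protease that trims chemokines, with a ratio of 9.72 (7.15 to 13.5). These counts are on the log2(scaled FPKM + 1) scale, on which none of the lists held a gene past 2-fold lower. By read ratio Cmklr1, the chemerin receptor, was lower in 3D, at 0.398 (0.239 to 0.641), and it was named after its values were seen.

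Some members can be set side by side in both species, as values only. Cx3cl1 and Cxcl16 were higher in the mouse Model hearts (3.42-fold and 2.33-fold) and in the rat 3D culture (ratios 42.8 and 4.004). Ccl2 and Cxcl10, with rat ratios of 19.7 and 42.2, were not called in the mouse. Cxcr4 was 1.81-fold higher in the mouse Model hearts and had a rat ratio of 0.790. The mouse folds are on the log2(scaled FPKM + 1) scale and the rat values are read ratios, so their sizes cannot be compared. The studies differ in species, tissue and design, and no test between them was made.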

How the data were processed

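The series holds 12 messenger RNA libraries of mouse heart (4 groups of 3, named in the sample titles) and 2 of rat cell cultures. The authors deposited FPKM values with gene lengths and coordinates for every gene. Per the submitters' processing notes, the tools were fastp, featureCounts 1.5.0-p3 and HISAT2 2.0.5, on mm10 and Rnor_6.0. Neither annotation release nor strand setting is stated, and the labels' protocols describe both an unstranded and a strand-specific library, so overlapping genes are uncertain.

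Whole reads were recovered from FPKM times gene length, and 100.0% of values came out whole within 0.02 reads. Mouse libraries held 13085370 to 16698987 reads and rat libraries 13262387 (2D) and 11910160 (3D), and 1 read per kilobase was worth 0.0566 to 0.0805 FPKM in the mouse. Scaling used median-of-ratios factors from the 10422 mouse and 12109 rat genes at 1 FPKM or more throughout. For mouse genes reaching 1 FPKM in 3 or more libraries, limma 3.58.1 (R 4.3.3) was fitted to log2(scaled FPKM + 1) (trend, all 12 libraries in 1 fit, 10.9 degrees of freedom, two-sided tests, Benjamini-Hochberg adjustment over 13000 genes). Every adjusted p in the text is from this fit unless another is named. Rat genes had no test; read ratios carry exact 95% binomial intervals, 3 reads served as the floor and 2-fold was the size rule. The fit was tested on simulated data. Python 3.11.15 with pandas 2.3.3, scipy 1.17.1 and matplotlib 3.10.9 made the rest.

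Members and gene lists were chosen with earlier results of these data known, and the lung epithelium markers were added after the values were seen. Values in every library are given for members called in any mouse comparison and for the 5 members with the highest mean. Other members are given by means, ranges or counts, and at most 4 called genes of a list by smallest p. Cxcl13, Cx3cr1, Ccr2, Cxcr6 and members high in 1 library, and Rgs2, Ifngr1, Ifngr2 and Cmklr1, were named after their values were seen. Alternatives tried were limma-voom on recovered reads, a replicate block, a 0.1 pseudocount, unscaled FPKM, quantile normalization, a 0.3 FPKM filter or none, a fit of only the 2 groups, and leaving out each library. RefSeq promoter sequences are those of GRCm38.p6. Rat and protein sequences were not used here. Some genes that entered the counts are not reported here by name.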

Additional observations from a re-analysis of the deposited data

Results flagged for a closer look

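Lung epithelium genes, which enter no comparison of chemokine genes, were present in the heart library LQ-40 2 far above the Sham libraries. Sftpc stood there at 337.4 scaled FPKM, against 0 in every Sham library. Sftpb, another surfactant gene, stood at 37.7, against at most 0.359 in Sham. Sftpa1 stood at 32.9, against 0 in every Sham library. Ager, a gene of flat alveolar cells, stood at 11.3, against at most 0.109 in Sham. The chemokine gene Cxcl15, at 8.83 scaled FPKM, was found in the same library. Their source was not tested.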

How the results depend on the processing

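The 3 libraries of a group limit precision: 26 of 33 Model minus Sham intervals reached 2-fold. The count of chemokine entries called between Model and Sham was 10 and ranged from 9 to 12 over the alternatives. It was 12 with a pseudocount of 0.1 or with only the 2 groups, adding Ccr2 and Cxcr6, and 11 without the filter or with the 0.3 FPKM filter, adding Cxcl2. Leaving out single libraries gave 9 to 11, with Cxcr4 lost in the lowest counts. No entry called between Model and Sham changed direction in any of these settings. No chemokine entry was called in the other 3 mouse comparisons under any of these alternatives.

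Limma-voom was run without the median-of-ratios factors. It moved the median log2 difference of all genes between Model and Sham from 0.025 to 0.27, and the chemokine median from 0.61 to 1.24. With 3-fold as the size rule on the log2(scaled FPKM + 1) scale, 13 rat genes were past it instead of 16. The read ratios or bounds of the other 3 (Cxcl11, Ccl9 and Ccl6) are past 3-fold.

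Same-numbered libraries deviated with correlations from -0.268 to 0.219, and differently numbered ones from -0.394 to 0.389. With 3 libraries in a group these values cannot show whether the replicate numbers pair the libraries. With a replicate block, 10 entries were called, all shared with the fit without it, and in the signalling and control list 1 gene, Cmklr1, was called in LQ-40 against Model instead of 0.

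That list also had 1 called gene in LQ-40 against Model with FPKM as deposited and 1 with quantile normalization, Cmklr1 in each, and 0 to 1 when single libraries were left out. In SQ-3 against Model it had 1, Sdc4, with only the 2 groups. In Model against Sham it had 14 to 21 calls when single libraries were left out, against 26. The NF-kB axis had 4 to 8, against 9. The interferon axis had 0 to 1 in LQ-40 against Model, with 1 call without Model 1. The causes were not tested. Over all genes, calls between Model and Sham fell from 5053 to 3275 without Model 1. They ranged from 14 to 156 in LQ-40 against Model (87) and from 11 to 62 in SQ-3 against Model (45).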
